A study of Mus musculus with 8 samples.

Results

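The circular RNAs (circRNAs) that mouse heart makes from the insulin receptor gene Insr and the insulin-like growth factor 1 receptor gene Igf1r were taken as every circle that the deposited table assigns to either gene name. This gave 27 of 27391 circles, 22 from Insr and 5 from Igf1r, with 496 of 254236 back-spliced reads. A back-spliced read crosses the closing junction of a circle, where the end of an exon meets its own start or that of an exon before it. Hearts came from male wild-type (WT) mice, 4 with a sham operation and 4 with transverse aortic constriction (TAC), a narrowing of the aortic arch that makes the left ventricle pump against raised pressure. Tissue was taken 8 weeks after surgery, and each mouse gave 1 library. Libraries are called sham or TAC replicate 1 to 4 in accession order, which pairs no mice. Both genes were singled out because an earlier edgeR analysis of these same libraries had called a circle of each higher in TAC. The sham and TAC values below are therefore a description, and the p-values printed with them are part of that description and no independent support.

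Insulin and IGF1 receptors are closely related receptor tyrosine kinases. Each is made as a single precursor that is cut into an extracellular alpha subunit, which binds the hormone, and a beta subunit, which spans the membrane and carries the kinase. Bound receptors phosphorylate adaptor proteins and so reach the PI3-kinase and Akt branch and the Ras and MAP kinase branch, and in heart muscle they are known for control of glucose uptake, protein synthesis and growth. A circle cut from such a gene lacks the ends of the messenger RNA, and these libraries count circles only, so the level of the linear messenger was not analysed here.

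In both genes exon 2 alone closed into the circle with the most reads over the 8 libraries. The 2 circles are shown first because most of what follows turns on them. Each sequence below runs 5′ to 3′ across the back-splice junction, with the last 50 bases of exon 2 in lower case and the first 50 bases of the same exon in capitals.
Insr exon 2: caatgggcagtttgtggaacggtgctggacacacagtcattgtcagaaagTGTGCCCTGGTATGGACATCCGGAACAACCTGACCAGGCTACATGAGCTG
Igf1r exon 2: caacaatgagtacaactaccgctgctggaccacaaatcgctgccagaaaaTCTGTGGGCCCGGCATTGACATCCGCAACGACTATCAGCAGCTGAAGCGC

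The Insr circle is exon 2 of 21, 552 nt at chr8:3258383-3258934 (mm10, minus strand). The Igf1r circle is exon 2 of 21, 546 nt at chr7:68003810-68004355 (mm10, plus strand). Both exons are coding throughout and encode the beginning of the hormone-binding part of the receptor. Aligned end to end, the exons were identical in 387 of 561 columns (69.0%), with a longest shared run of 14 nt. Across the printed junction windows the longest shared run was 8 nt, so the letters around the junction tell the circles apart. Over exons 2 to 20 the identity between the genes ran from 52.3% (exon 14) to 80.8% (exon 19).

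Both exon lengths are multiples of 3, so that the receptor's reading frame would continue across the junction. Read once round in that frame, the Insr exon held 184 codons with 0 stop codons and 5 ATG codons, and the Igf1r exon held 182 codons with 0 stop codons and 2 ATG codons. The other frames held 6 and 7 stop codons in Insr and 5 and 7 in Igf1r. That frame is open because the exon lies inside the receptor's coding sequence, and the files hold no measurement of translation.

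The next 4 junctions are shown because they mark the 2 Insr circles with the most reads after exon 2 and the circles of exons 3 to 5, which use matching exons of both genes. In each, 15 bases of the last exon are in lower case and 15 bases of the first exon in capitals.
Insr exons 11 to 12: cgatatggtgatgagGCCATCCCGAAAGCG
Insr exons 11 to 20: ctgtccagagagactGCCATCCCGAAAGCG
Insr exons 3 to 5: gaccttggaaattggTTTGCCCAACCATCT
Igf1r exons 3 to 5: ggagcagctggaaggTGTGCCCAAGTGTGT

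The first pair shares the bases in capitals, since both circles start at exon 11 and differ only in where they end. The 2 circles of exons 3 to 5 join matching exons of the 2 genes.

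All 27 circles had both ends at annotated exon borders, and all 27 consisted of coding sequence. Neither the first exon, which holds the start codon, nor the last exon, exon 21, was part of any of them. Spliced lengths ran from 300 to 1838 nt in Insr (median 760.5 nt) and from 265 to 2145 nt in Igf1r (median 546 nt), with 1 to 11 exons per circle. The 3 circles made of a single exon held 260 of the 496 reads, and exon 2 accounted for 251 of these. For 15 of the 27 the spliced length was a multiple of 3. Exon numbers are those of the GENCODE M21 transcripts Insr-201 and Igf1r-201. The Insr isoform that the table names counts 1 more exon between exons 10 and 11, so the lengths of the 3 circles that span this place (exons 4 to 13, 5 to 11 and 10 to 13) are given without it.

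Most circles rested on few reads. Only 10 of the 27 had at least 10 reads or were seen in at least 4 libraries, and these are described singly. The other 17 held 1 to 6 reads each, 10 of them a single read. Of all 27, 12 were seen only in TAC libraries (22 reads in all), 4 only in sham libraries (5 reads), and 11 in both. The matching shares over all circles were not taken, and nothing is read from these counts. Sham replicates 1 to 4 held 9081, 1830, 4980 and 5600 circles of any gene, and TAC replicates 1 to 4 held 10786, 567, 7770 and 11550. Of all 27391 circles 61.7% were seen in 1 library only.

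**Figure D1:**
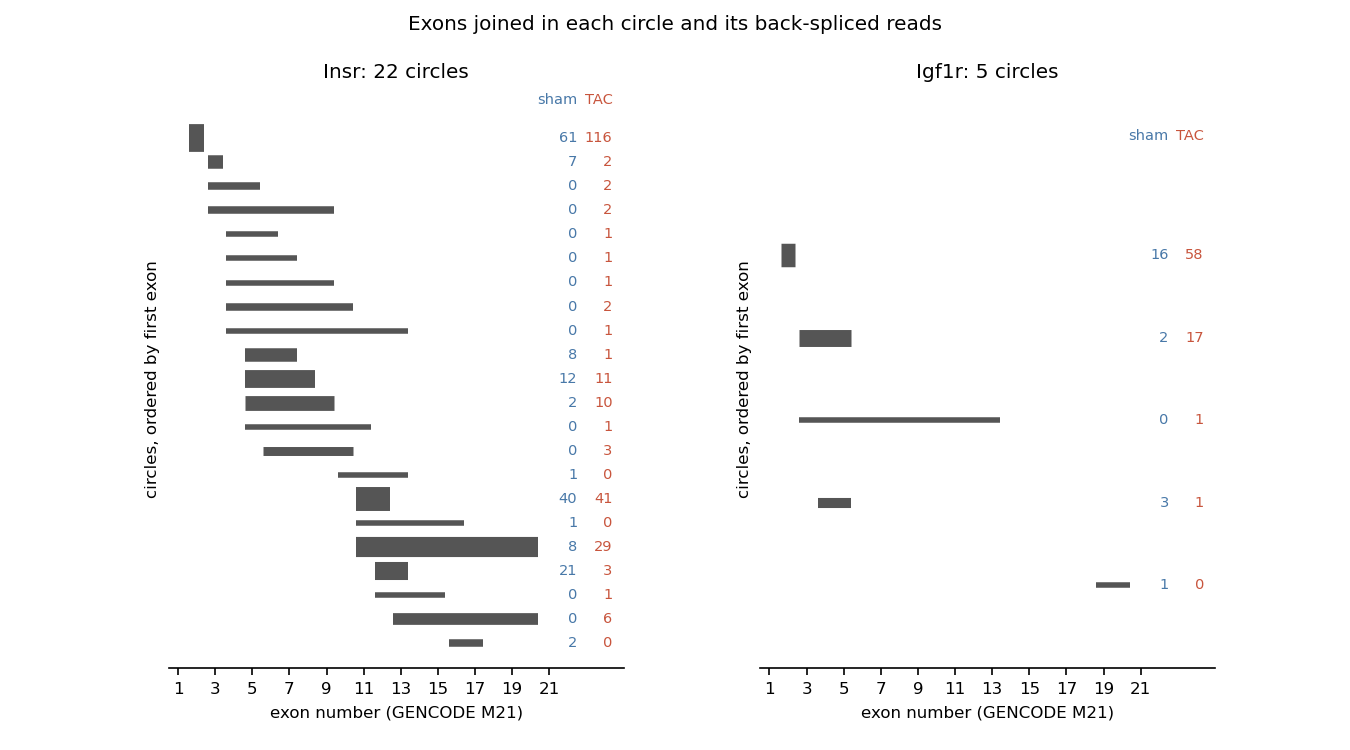
Exons joined in each of the 22 Insr circles (left) and 5 Igf1r circles (right). Each bar runs from the first to the last exon on the horizontal axis (exon number, GENCODE M21), thicker bars have more reads, and the figures beside it are back-spliced reads summed over 4 sham and 4 TAC libraries. Exon 2 alone holds the most reads in both genes, 61 and 116 in Insr and 16 and 58 in Igf1r.

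Depth sets what can be seen. The libraries held between 1119 and 100142 back-spliced reads, and sham replicate 2 (3963 reads) and TAC replicate 2 (1119 reads) were under 5000. Values are normalised reads, the back-spliced reads of a circle divided by the library's size factor. A circle with no read could still stand at up to 17.3 normalised reads in TAC replicate 2 and 13.6 in sham replicate 2, against 0.584 to 3.09 in the other 6 libraries. These limits are what 3 reads are worth and, like all intervals here, cover counting error only. Sham replicate 4 had the most reads, but its 100142 reads fell on 5600 circles. In sham replicate 1, 40796 reads fell on 9081 circles, and in TAC replicate 4, 36120 reads fell on 11550. The limit of 0.584 in sham replicate 4 takes no account of this and may be too low.

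Library make-up differed between libraries as well, and the ranges of the 2 groups overlapped in each measure given here. The median read came from a circle of 353 to 394 nt in sham replicates 1, 3 and 4, of 498 to 542 nt in TAC replicates 1, 3 and 4, and of 491 and 334 nt in the shallow sham and TAC libraries. Circles of 500 to 600 nt, the class of both exon 2 circles, held 9.85, 13.1, 8.68 and 7.86% of reads in the sham libraries and 14.3, 5.04, 14.8 and 14.6% in the TAC libraries. Of 12 cardiomyocyte marker genes 11 had circles, Pln being the one without, and their summed level ran from 220.3 to 881 normalised reads in sham and from 318 to 1809 in TAC. Fewer cells of a type and less RNA per cell cannot be told apart in such tissue libraries.

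The Insr exon 2 circle, with 177 reads, stood at 6.45, 9.09, 1.66 and 7.78 normalised reads in sham replicates 1 to 4. In TAC replicates 1 to 4 it stood at 34.2, 0, 32.9 and 24.2. The 3 TAC libraries with reads were above every sham library, and TAC replicate 2, the shallowest, had none, so the groups overlapped. Its limit of 17.3 lay above all sham values and below those of the other TAC libraries. Means were 6.24 ± 3.24 in sham and 22.8 ± 15.9 in TAC (SD, n = 4 each). Limma gave a log2 fold change (TAC minus sham) of 0.64 ± 1.39 (SE, adjusted p = 0.973), and edgeR on the recovered reads gave 1.83 ± 0.77 (adjusted p = 0.0869).

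Exon 2 was not the leading Insr circle in every library. Exons 11 to 12 had more reads in sham replicates 1 (28 against 17) and 3 (4 against 2), and TAC replicate 2 had 3 reads of exons 11 to 20 and none of exon 2. Among all circles of a library, the Insr exon 2 circle ranked 375, 417, 1591 and 423 in sham replicates 1 to 4 and 65, 58 and 92 in TAC replicates 1, 3 and 4. By its mean over the 8 libraries it was number 145 of 27391. Without TAC replicate 2, edgeR called the circle higher (2.23, adjusted p = 0.0136), as it did 18.9% of 1216 circles in either direction, while limma's value was 2.46 (adjusted p = 0.0992). Without both libraries under 5000 reads limma gave 2.72 (adjusted p = 0.0313) and edgeR 2.20 (adjusted p = 0.00460). In that comparison of 6 libraries limma called 17.9% of all 5809 circles tested and edgeR 30.0% of 1145.

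The Igf1r exon 2 circle, with 74 reads, stood at 4.17, 4.54, 3.31 and 0 normalised reads in sham replicates 1 to 4. TAC replicates 1 to 4 stood at 11.9, 0, 18.5 and 15.3. Again 3 of 4 TAC libraries were above every sham library and TAC replicate 2 had no read. Sham replicate 4, the library with the most reads but only 5600 circles, had no read of any Igf1r circle. By counting error alone this limits the exon 2 circle there to 0.584 normalised reads, below the other sham libraries. Means were 3.01 ± 2.07 in sham and 11.4 ± 8.08 in TAC (SD, n = 4 each). Limma gave a log2 fold change of 1.40 ± 1.57 (SE, adjusted p = 0.911).

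With edgeR the Igf1r exon 2 circle was called higher in TAC, by 2.16 ± 0.77 (adjusted p = 0.0418), and with DESeq2 it was not (2.20 ± 1.14, adjusted p = 0.356). The edgeR call was lost when any one of 6 libraries was left out: sham replicate 1 (2.91, adjusted p = 0.0692), 3 (2.22, 0.188) or 4 (1.36, 0.358), or TAC replicate 1 (2.35, 0.148), 3 (1.93, 0.346) or 4 (2.22, 0.161). Without both libraries under 5000 reads edgeR gave 2.58 (adjusted p = 0.0284) and limma 3.399 (adjusted p = 0.0760), with 30.0% and 17.9% of all circles called. The circle ranked 600, 819 and 779 in sham replicates 1 to 3 and 242, 119 and 179 in TAC replicates 1, 3 and 4.

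Both exon 2 circles fall in the length class whose share of reads was larger in TAC replicates 1, 3 and 4. After the trend of each library with circle length was removed, limma gave 0.007 for Insr exon 2 (adjusted p = 0.999), and edgeR with the trend as offset gave 1.18 (adjusted p = 0.217). For Igf1r exon 2 limma gave 0.78 (adjusted p = 0.866) and edgeR with that offset 1.60 (adjusted p = 0.132). Expressed per length, the Insr exon 2 circle had 11.3 normalised reads per kb in sham and 41.4 in TAC, and the Igf1r exon 2 circle 5.51 and 20.9. This divides both group means of a circle by the same length, so it is no correction of the group comparison for length.

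**Figure D2:**
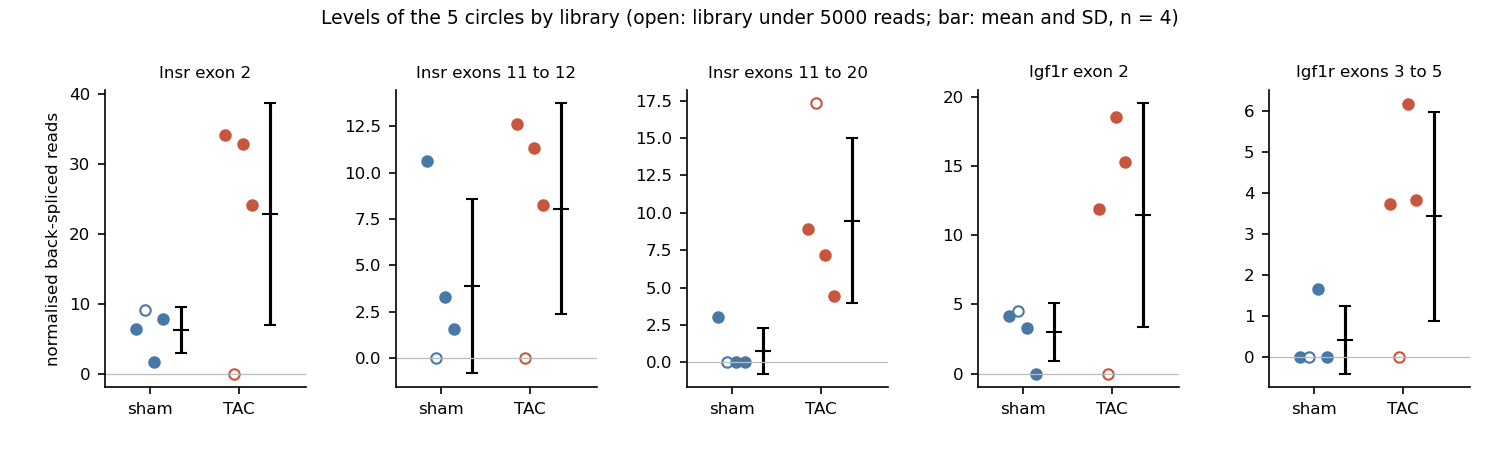
Normalised back-spliced reads (vertical axis, a scale of its own in each panel) of 5 circles in each of 4 sham (blue) and 4 TAC (red) libraries, with mean and SD as black bars. Open points are the 2 libraries under 5000 reads. In the exon 2 circles of Insr and Igf1r, TAC replicates 1, 3 and 4 lie above every sham library and TAC replicate 2 lies at 0, while in Insr exons 11 to 20 all 4 TAC libraries lie above every sham library.

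The circle of Insr exons 11 to 20 was the longest Insr circle with more than 2 reads. It is 1527 nt long at chr8:3158696-3174888 (minus strand) and includes the exons for the membrane-spanning part and most of the kinase. Sham replicate 1 stood at 3.03 normalised reads (8 reads) and the other 3 sham libraries at 0. TAC replicates 1 to 4 stood at 8.92, 17.3, 7.21 and 4.45, from 12, 3, 7 and 7 reads. All 4 TAC libraries were above all 4 sham libraries, where a zero allows up to 13.6 normalised reads in sham replicate 2, 2.48 in sham replicate 3 and 0.584 in sham replicate 4. The groups did not overlap in 1 of the 9 member circles tested by limma, this one, against 3.11% of all 3735 circles tested. That figure is given beside a circle chosen for this contrast, and nothing is read from it.

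Means for Insr exons 11 to 20 were 0.758 ± 1.52 in sham and 9.48 ± 5.55 in TAC (SD, n = 4 each). Limma gave a log2 fold change of 4.45 ± 1.61 (SE, adjusted p = 0.834). With edgeR it was called higher, by 2.66 ± 0.93 (adjusted p = 0.0364), and with DESeq2 it was not (3.13 ± 1.31, adjusted p = 0.224). The edgeR call was lost without sham replicate 3 (2.23, adjusted p = 0.192) or 4 (1.67, 0.253) and without TAC replicate 2 (2.50, 0.0732), 3 (2.73, 0.212) or 4 (3.13, 0.0739). Without sham replicate 1, its only sham library with reads, the edgeR value was 6.43 (adjusted p = 0.00163, with 8.91% of 696 circles called), and without TAC replicate 1 the circle had too few reads for edgeR's filter. With circle length as offset edgeR gave 0.59 (adjusted p = 0.735), and limma with the length trend removed gave 2.85 (adjusted p = 0.537).

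A shorter circle begins at the same exon. The circle of Insr exons 11 to 12, 415 nt at chr8:3173480-3174888 (minus strand), held 81 reads and was the next most abundant Insr circle after exon 2. Sham replicates 1 to 4 stood at 10.6, 0, 3.31 and 1.56 normalised reads, and TAC replicates 1 to 4 at 12.6, 0, 11.3 and 8.27. Sham replicate 1 lay among the TAC libraries with reads, so the groups overlapped. Means were 3.87 ± 4.70 in sham and 8.06 ± 5.68 in TAC (SD, n = 4 each). Limma gave 1.06 ± 1.59 (adjusted p = 0.940) and edgeR 0.70 ± 0.71 (adjusted p = 0.557).

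Exon 11 was the start most used in Insr after exon 2, by 3 circles with 119 reads. Exon 5 opened 4 circles with 45 reads, exon 12 opened 2 with 25, exon 3 opened 3 with 13, and exon 4 opened 5 with only 6. The ends most used after exon 2 were exon 12 (81 reads, 1 circle), exon 20 (43 reads, 2 circles) and exon 13 (26 reads, 3 circles). The second circle that ends at exon 20 starts at exon 13. It had 3 reads in TAC replicate 1 and 3 in TAC replicate 4 and none elsewhere.

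Circles that start at Insr exon 5 differed in how far they ran. Exons 5 to 7 (487 nt, chr8:3194795-3203034) had 3, 0, 1 and 4 reads in sham replicates 1 to 4 and 0, 0, 0 and 1 in TAC, and limma gave -1.35 ± 1.05 (log2 fold change and SE, adjusted p = 0.836). Exons 5 to 8 (744 nt, chr8:3192546-3203034) had 1, 0, 0 and 11 reads in sham and 4, 0, 4 and 3 in TAC (1.70 ± 1.48, adjusted p = 0.842). Exons 5 to 9 (912 nt, chr8:3189125-3203034) had 1, 1, 0 and 0 reads in sham and 4, 0, 4 and 2 in TAC (1.31 ± 1.496, adjusted p = 0.917). None of the 3 passed limma's test over 8 libraries, and their groups overlapped. Without both libraries under 5000 reads limma gave 3.28 for exons 5 to 9 (adjusted p = 0.0335), with 17.9% of all circles called.

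The remaining Insr circles described singly are exon 3 and exons 12 to 13. Exon 3 (322 nt, chr8:3211379-3211700), which follows exon 2 in the hormone-binding part, had 3, 0, 2 and 2 reads in sham and 1, 0, 1 and 0 in TAC (limma -0.67 ± 1.25, adjusted p = 0.957). Exons 12 to 13 (300 nt, chr8:3169709-3173619) were seen in 3 libraries only. Sham replicate 4 held 21 of the 24 reads (4.09 normalised reads), TAC replicate 2 held 1 (5.77) and TAC replicate 4 held 2 (1.27).

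Exons 2 and 3 to 5 were the exon blocks found as circles in both genes. The Igf1r circle of exons 3 to 5 (610 nt, chr7:68164993-68173375, plus strand) stood at 0, 0, 1.66 and 0 normalised reads in sham replicates 1 to 4 and at 3.72, 0, 6.18 and 3.82 in TAC. The 3 TAC libraries with reads were above every sham library. Means were 0.414 ± 0.828 in sham and 3.43 ± 2.55 in TAC (SD, n = 4 each), and limma gave 2.62 ± 1.48 (adjusted p = 0.834). Without both libraries under 5000 reads limma gave 3.49 (adjusted p = 0.0482) and edgeR 3.61 (adjusted p = 0.0454), with 17.9% and 30.0% of all circles called. The matching Insr circle (616 nt, chr8:3202890-3211700) had 1 read in TAC replicate 3 and 1 in TAC replicate 4 and none elsewhere. Of the other 3 Igf1r circles, exons 4 to 5 held 4 reads, and exons 3 to 13 and exons 19 to 20 held 1 each.

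Of the 9 member circles that could be tested by limma (above 0 in at least 4 of 8 libraries), 0 passed at an adjusted p of 0.05, and 1 was under 0.05 unadjusted, that of Insr exons 11 to 20. Over all circles limma called 0.0268% (1 of 3735), with 4.07% under 0.05 unadjusted. With edgeR 2 of the 4 member circles tested were called higher, against 7.39% of all 717 circles called higher and 13.1% called in either direction. With DESeq2 0 member circles were called and 2, those of Insr exon 2 and Insr exons 11 to 20, were under 0.05 unadjusted, against 14.6% under 0.05 unadjusted and 1.68% called of all 1367 circles. Since the genes were chosen from this contrast, nothing is read from these counts.

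**Figure D3:**
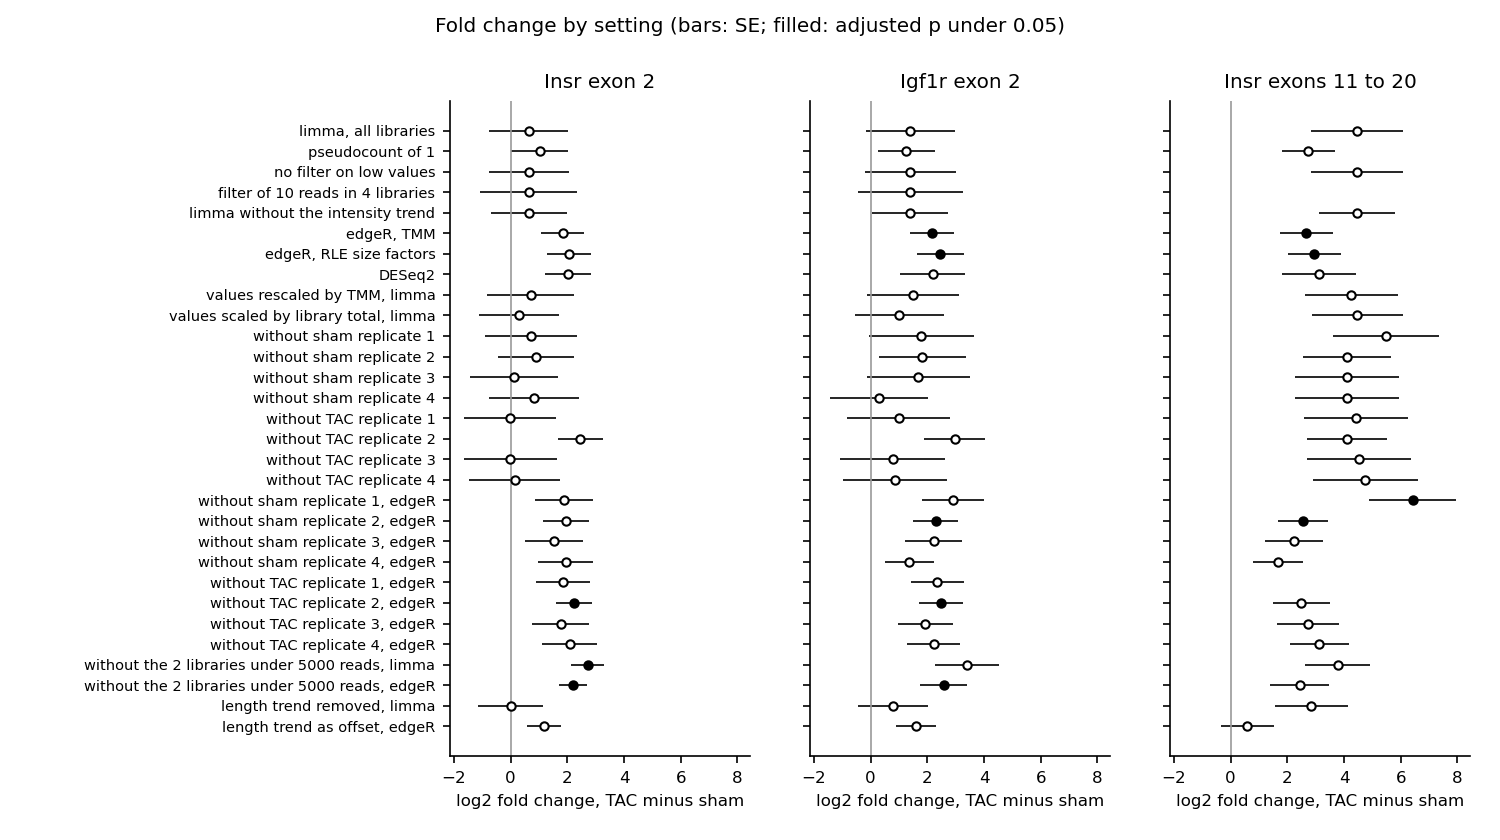
Log2 fold change of TAC minus sham (horizontal axis) for 3 circles under each way of processing the values (vertical axis). Bars are SE, and filled points have an adjusted p under 0.05. Limma values for Insr exon 2 lie near 0 in several settings and reach 2.72 without the 2 libraries under 5000 reads, while all points of Insr exons 11 to 20 lie above 0, down to 0.59 with length as offset.

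Summed over all circles, Insr stood at 24.3, 18.2, 7.45 and 16.7 normalised reads in sham replicates 1 to 4 and at 68.4, 23.1, 65.9 and 47.1 in TAC replicates 1 to 4. TAC replicates 1, 3 and 4 were above every sham library, and TAC replicate 2 lay just under sham replicate 1. Means were 16.7 ± 6.95 and 51.1 ± 20.96 (SD, n = 4 each). As a share of all back-spliced reads, Insr held 0.157, 0.101, 0.0503 and 0.0859% in the sham libraries and 0.278, 0.357, 0.304 and 0.205% in the TAC libraries. Limma on host sums gave 1.61 ± 0.86 (adjusted p = 0.9995), edgeR 1.29 ± 0.62 (adjusted p = 0.182) and DESeq2 1.42 ± 0.46 (adjusted p = 0.0405). Without TAC replicate 2 limma gave 1.95 (adjusted p = 0.0388) and edgeR 1.53 (adjusted p = 0.0393), where they called 0.95% and 7.71% of all hosts. Without both libraries under 5000 reads they gave 2.03 (adjusted p = 0.0142) and 1.43 (adjusted p = 0.0131), with 6.06% and 21.6% of hosts called.

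The Igf1r sum was 5.69, 4.54, 4.97 and 0 normalised reads in sham replicates 1 to 4 and 15.6, 0, 24.7 and 20.4 in TAC replicates 1 to 4. Both groups hold a library at 0, the deepest of the sham group and the shallowest of the TAC group. Means were 3.80 ± 2.58 and 15.2 ± 10.8 (SD, n = 4 each). Limma gave 1.45 ± 1.52 (adjusted p = 0.9995), edgeR 1.96 ± 0.66 (adjusted p = 0.0395) and DESeq2 1.85 ± 1.06 (adjusted p = 0.306). The edgeR call was lost without sham replicate 3 (2.21, adjusted p = 0.108) or 4 (1.27, 0.307) and without TAC replicate 1 (2.02, 0.204), 2 (2.24, 0.0622), 3 (1.70, 0.377) or 4 (1.93, 0.166). Of all host genes limma called 0.0337% (1 of 2967), edgeR 8.24% (84 of 1020) and DESeq2 7.29% (42 of 576). Among 6492 host genes Insr ranked 73 and Igf1r 402 by mean circle sum. The summed cardiomyocyte markers had a median of 301 normalised reads in sham and 1304 in TAC. The markers with the largest sums were Slc8a1 (means 106 ± 139 in sham and 548 ± 412 in TAC), Ttn (117 ± 122 and 272 ± 90.2) and Ryr2 (121 ± 39.0 and 205 ± 105, SD, n = 4 each). For each of these genes the groups overlapped. The part of the markers in the Insr and Igf1r sums was not tested.

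Within a library, shares need no scaling between libraries. The exon 2 circle held 26.6, 50, 22.2 and 46.5% of Insr circle reads in sham replicates 1 to 4 and 50, 0, 50 and 51.4% in TAC replicates 1 to 4. Sham replicates 2 and 3 and TAC replicate 2 had only 4, 9 and 4 Insr reads. The mean share was 36.3 ± 13.96% in sham and 37.8 ± 25.2% in TAC (SD, n = 4 each), a difference of 1.51 percentage points (exact two-sided permutation test, p = 0.80). TAC replicate 2 carries this value: without it the difference was 14.1 points (p = 0.171, same exact test), and without both libraries under 5000 reads it was 18.7 points (exact p = 0.10, the smallest possible at 3 against 3). Over pooled reads the share was 37.4% in sham (95% Wilson interval 30.4 to 45.1%) and 49.6% in TAC (43.2 to 55.9%). Sham replicate 4 held 86 of the 163 pooled sham reads. The intervals cover counting error and not the spread between mice, so whether they overlap is no test of the groups.

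Sham replicate 4 and TAC replicates 1, 3 and 4 had 46.5 to 51.4% of their Insr reads in exon 2. The rest of their reads was divided in different proportions among the other circles, of which exons 11 to 12 and exons 5 to 8 had reads in all of these libraries. Circles over 1000 nt held 12.5, 0, 0 and 0% of Insr reads in sham replicates 1 to 4 and 18.5, 75.0, 15.6 and 16.2% in TAC replicates 1 to 4. In reads this is 8 of 163 (4.91%) in sham and 42 of 234 (17.9%) in TAC, and no sham library reached the lowest TAC library. Sham replicates 2 and 3 and TAC replicate 2 had only 4, 9 and 4 Insr reads, and sham replicate 4 held 86 of the 163. Sham replicate 1 had 8 of 64 reads in such circles and TAC replicate 3 had 10 of 64. The length mix of all circles also differed between libraries, and the share over 1000 nt was not taken over all circles. Most of the Insr reads over 1000 nt belong to exons 11 to 20, a circle of the contrast that chose the genes, so the difference is a description. Sham replicate 4 instead had 21 of its 86 Insr reads in the 300 nt circle of exons 12 to 13 and 11 in exons 5 to 8.

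**Figure D4:**
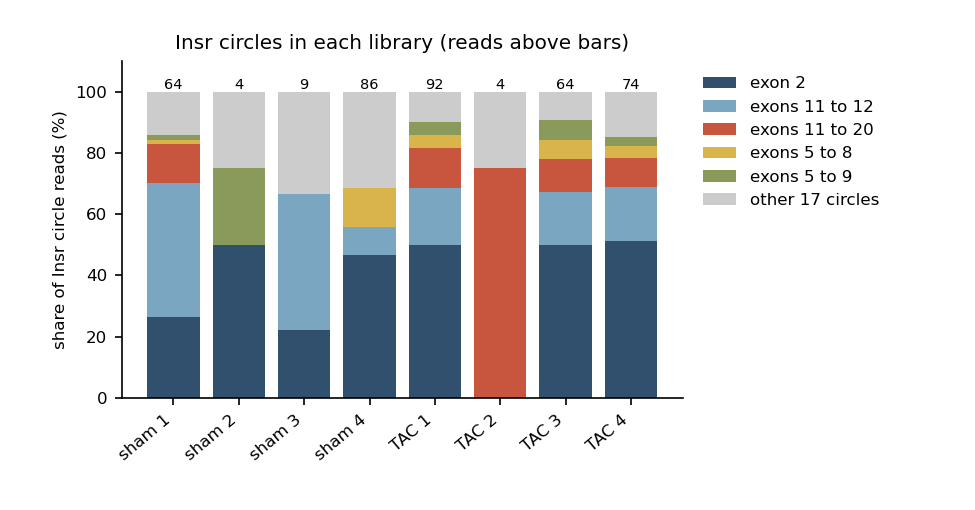
Share of Insr circle reads (vertical axis, percent) that each of 5 circles and the other 17 together held in the 4 sham and 4 TAC libraries, with the number of Insr reads above each bar. Exon 2 holds 50 to 51.4% in TAC replicates 1, 3 and 4, and exons 11 to 20 appear in all TAC libraries and in sham replicate 1.

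Exon 2 took a larger share of the reads in Igf1r than in Insr in each of the 6 libraries with reads of both genes. This circle held 73.3, 100 and 66.7% of Igf1r circle reads in sham replicates 1 to 3 and 76.2, 75.0 and 75.0% in TAC replicates 1, 3 and 4, the libraries with reads of the gene. Over all reads the share was 74.7% (65.4 to 82.3%, Wilson), against 44.6% (39.8 to 49.5%) for exon 2 in Insr. The groups differed by -4.60 percentage points (TAC minus sham, exact two-sided permutation test, p = 1, n = 3 each, smallest p possible 0.10). Sham replicate 2 at 100% rests on a single read.

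Whether the 2 exon 2 circles differed in their change was tested on their log2 ratio within each library (Insr over Igf1r, each with the pseudocount of 0.195). The ratio was 0.61, 0.97, -0.92 and 5.36 in sham replicates 1 to 4 and 1.51, 0, 0.82 and 0.66 in TAC replicates 1 to 4. Sham replicate 4, with 40 Insr and 0 Igf1r exon 2 reads, stands far above the rest. TAC replicate 2 had no read of either circle, so its ratio of 0 is that of the pseudocounts and no measurement. The group means differed by -0.76 (exact two-sided permutation test, p = 0.771), by -0.51 without TAC replicate 2 (exact p = 0.971), and by 0.53 without sham replicate 4. Adjusted over the 3 within-library measures, all 3 p-values were 1. The spread leaves room for differences in either direction.

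The partners of these receptors give the setting. Of 69 genes of insulin and IGF signalling, from ligands to adaptors, PI3-kinase, Akt and MAP kinases, 47 had a circle. The hormones Ins1, Ins2, Igf1 and Igf2, the adaptors Irs1 and Irs2, the kinase Akt1 and the glucose transporter Slc2a4 were among the 22 with no circle in the table. With limma 0 of 32 hosts tested passed, and 0 were under 0.05 unadjusted. The median log2 fold change was 0.84, with 20 of 32 above 0, against 0.13 and 55.0% over all 2967 hosts. With edgeR 0 of 15 were called higher and 1 lower, against 8.24% of all 1020 hosts called in either direction. The edgeR median was -0.49 against -0.03 over all hosts. Its sign differed from that of the limma median, but the 15 and 32 hosts are different sets, and no median over the same hosts was taken.

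The host called lower was Pik3c2a, a class II PI3-kinase that acts in membrane traffic. Its circles summed to 24.3, 13.6, 34.8 and 41.1 normalised reads in sham replicates 1 to 4 and to 12.6, 5.77, 7.21 and 10.2 in TAC, and the groups did not overlap. Means were 28.4 ± 12.1 and 8.95 ± 3.07 (SD, n = 4 each), with an edgeR log2 fold change of -2.06 ± 0.66 (adjusted p = 0.0302). Limma gave -1.59 ± 1.07 (adjusted p = 0.9995) and DESeq2 -1.94 ± 0.52 (adjusted p = 0.00808), where DESeq2 called 7.29% of 576 hosts. The edgeR call for Pik3c2a was lost without any one of sham replicates 1, 3 and 4 or TAC replicates 1, 3 and 4 (-1.83 to -2.15, adjusted p 0.0524 to 0.377). Without the 2 libraries under 5000 reads limma gave -1.72 (adjusted p = 0.0184) and edgeR -2.12 (adjusted p = 0.000643), with 6.06% and 21.6% of hosts called.

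Gab1, an adaptor that recruits PI3-kinase, stood at 39.8, 49.97, 38.9 and 50.6 in sham and at 32.0, 23.1, 24.7 and 31.8 in TAC. Its groups did not overlap either, as in 3.24% of all hosts above 0 in at least 4 libraries, and it passed neither test (edgeR -0.99 ± 0.63, adjusted p = 0.335).

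Among the 33 receptor tyrosine kinase genes with a circle, Insr ranked 1 by mean circle sum over the 8 libraries (33.9 normalised reads) and by number of circles (22). Igf1r ranked 2 by this mean (9.48) and 8 by number of circles (5). Its place rests on the TAC libraries: in sham its mean of 3.80 lay below those of Mertk (12.2), Flt1 (5.06), Erbb4 (4.35) and Ror1 (4.02). By the mean over 8 libraries Mertk, a receptor of phagocytic cells, followed at 7.67, then Ror1 at 5.87, the VEGF receptor Flt1 at 5.29, the neuregulin receptor Erbb4 at 4.70 with 18 circles, and the angiopoietin receptor Tek at 3.20. The sums are not scaled by length, and for Igf1r, Mertk, Ror1, Flt1, Erbb4 and Tek their ranges over the 8 libraries overlap. The range of Insr overlaps that of Mertk as well. In sham replicate 2 Mertk stood at 27.3 and Insr at 18.2, and in sham replicate 3 both stood at 7.45. The Insr mean was 16.7 in sham, against 12.2 for Mertk, and 51.1 in TAC. Of 56 such genes beside Insr and Igf1r, 14 could be tested by limma and 5 by edgeR, and 0 passed in either. With limma 0 and with edgeR 1 were under 0.05 unadjusted, and DESeq2 called 0. The median was 0.16 by limma and 0.45 by edgeR. Mertk stood at 12.2 ± 10.5 in sham and 3.19 ± 2.30 in TAC, with an edgeR log2 fold change of -1.56 ± 0.69 (adjusted p = 0.138).

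**Figure D5:**
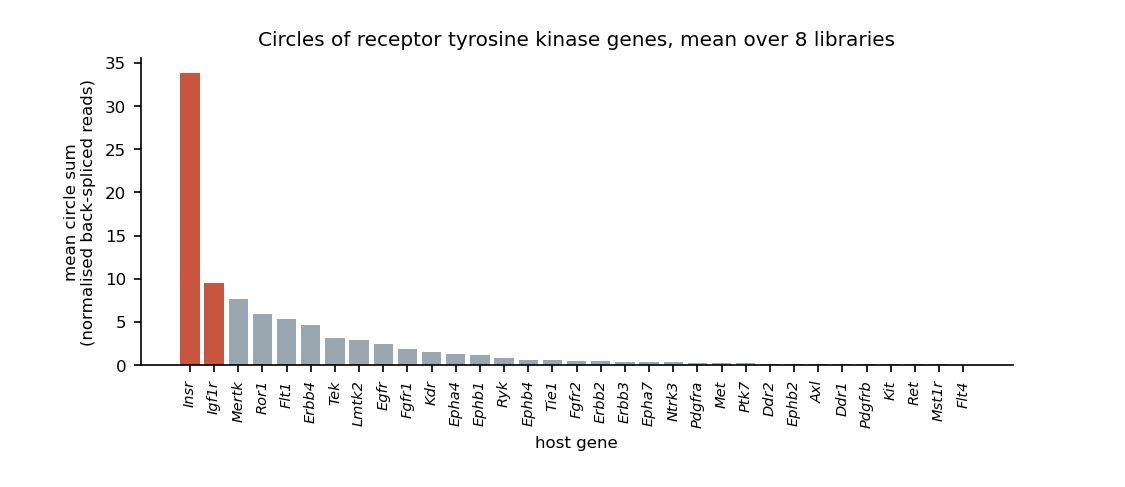
Mean circle sum over the 8 libraries (vertical axis, normalised back-spliced reads) of the 33 receptor tyrosine kinase genes with a circle (horizontal axis), Insr and Igf1r in red. Insr at 33.9 stands above the rest, and Igf1r at 9.48 is next to Mertk at 7.67.

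Circles of other cell types were also present. The endothelial markers all had circles (11 of 11), with a summed level of 15.2 to 45.4 normalised reads in sham and 5.77 to 57.9 in TAC. Fibroblast markers had circles for 7 of 11 genes (Lum, Tcf21, Postn and Fn1 had none), at 1.66 to 5.06 in sham and 0 to 5.95 in TAC. Leukocyte markers (5 of 9) stood at 14.4 to 28.6 and 11.5 to 40.1, and smooth muscle and pericyte markers (4 of 9) at 8.28 to 22.7 and 12.4 to 28.9. All 4 sums overlapped between the groups, and their part in the Insr and Igf1r values was not tested.

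The hosts whose circle sums followed the Insr sum most closely over the 8 libraries were Ash1l and Nsd2, both histone methyltransferases, the transcription factor Nfix, the methyltransferase Mettl9 and the transcription factor Zbtb16. Their Pearson r on the log2 scale was 0.934, 0.925, 0.924, 0.898 and 0.881, the highest of 912 hosts compared. For Igf1r they were Cped1, Acadm, the medium-chain acyl-CoA dehydrogenase of fatty acid oxidation, Armc8, Carf and Bcas3, with r of 0.913, 0.910, 0.905, 0.900 and 0.897. The 8 points of each share libraries, depth and group, and no p is given. Between the 2 receptor genes r was 0.514. Igf1r had no read in sham replicate 4 and TAC replicate 2, where Insr stood at 16.7 and 23.1.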

How the data were processed

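Back-spliced reads per circle were measured in 8 heart libraries, 4 per group, separate mice per the labels' protocols, which say that a kit extracted circRNA, while the molecule is labelled total RNA. The submitters' processing notes name mm10, HISAT2, StringTie and DESeq2, and no source used here names the circRNA caller. The deposited values are a signal, back-spliced reads divided by 1 size factor per library. This follows from the values: 100% were whole multiples of the library's smallest step within 0.001, and the factors matched DESeq2's median of ratios, so whole reads were recovered. Limma 3.58.1 with an intensity trend was the main test. It was run on log2(value + 0.195), where 0.195 is the lowest deposited value that is not 0, and took circles with reads in at least 4 libraries, with Benjamini-Hochberg adjustment over all circles. Its SE follows the trend over all circles. edgeR 4.0.16 (quasi-likelihood, TMM, minimum count 5, minimum total 15) and DESeq2 1.42.0 were run on recovered reads. Host sums add all circles of a gene. Scripts were tested on simulated data. Starts in the table count from 0 and are given from 1, since 99.9% of starts plus 1 fall on exon starts. Exons and sequences come from GENCODE M21. Strand of the libraries is not given, so antisense genes were not separated.

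The circles, gene lists and naming rules were chosen with earlier results of these data known. Named singly were circles with at least 10 reads or seen in at least 4 libraries, hosts of the 2 signalling lists that passed a test or had the 5 largest mean sums, and per receptor the 5 hosts of highest correlation among hosts above 0 in at least 7 libraries. Some hosts that this rule picks are not reported here. Group differences of single measures used exact two-sided permutation tests, whose smallest p at 4 against 4 is 0.0286. Intervals are 95% Wilson. Alternatives covered pseudocount, filter, variance model, tool, scaling, circle length, left-out libraries and the 2 libraries under 5000 reads. Of these, scaling by library total and edgeR with each library left out were added after seeing the data. Figures were drawn with matplotlib 3.10.9.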

Additional observations from a re-analysis of the deposited data

Results flagged for a closer look

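In 6 of 28 groups of 4 libraries examined, 1 library stood apart from the other 3 by Dixon's criterion (its gap to the nearest, over the range). Chance gives about 1 in 20 groups for continuous values, a rate that does not apply to counts this sparse. In 4 of the 6 the other 3 libraries were at 0, which meets the criterion by construction, and the library was the only one of its group with reads: Insr exons 5 to 7 in TAC replicate 4 (0.636 normalised reads), Insr exons 11 to 20 in sham replicate 1 (3.03), Insr exons 12 to 13 in sham replicate 4 (4.09) and Igf1r exons 3 to 5 in sham replicate 3 (1.66). Insr exons 5 to 9 stood at 4.54 in sham replicate 2, which is 1 read there. The exon 2 share of Insr reads was 0% in TAC replicate 2, from 4 Insr reads.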

How the results depend on the processing

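No paired analysis was possible because the labels give no replicate numbers that tie a sham mouse to a TAC mouse. Values are log2 fold changes with adjusted p. The number of member circles called, 0 by limma, was 2 with edgeR (TMM, 13.1% of all circles called, or RLE), 0 to 3 with edgeR and 1 library left out (3 without TAC replicate 2, 18.9%), and without the 2 libraries under 5000 reads 4 by limma (Insr exon 2, exons 5 to 9 and exons 6 to 10, Igf1r exons 3 to 5, with 17.9% of all circles called) and 3 by edgeR (30.0%). Of these, Insr exons 6 to 10 had 1 read in each of TAC replicates 1, 3 and 4 and none in sham. It passed the filter through the TAC libraries alone, so nothing is read from its call. Insr exon 2 reversed in limma without TAC replicate 1 (-0.026) or 3 (-0.0077), where its range with 1 library left out was -0.026 to 2.46, and 1.52 to 2.23 with edgeR. It was called by edgeR without TAC replicate 2 (2.23), and without the 2 libraries under 5000 reads by limma (2.72) and edgeR (2.20). Igf1r exon 2 was called by edgeR with TMM (2.16), RLE (2.46), without sham replicate 2 (2.29), without TAC replicate 2 (2.48) and without those 2 libraries (2.58), with leave-one-out ranges of 0.29 to 2.97 (limma) and 1.36 to 2.91 (edgeR). The Insr sum was called by DESeq2 (1.42), without TAC replicate 2 by limma (1.95) and edgeR (1.53), and without those 2 libraries by limma (2.03) and edgeR (1.43), with ranges of 1.26 to 1.95 and 1.09 to 1.73. The Igf1r sum was called by edgeR with TMM (1.96), RLE (2.13), without sham replicate 1 (2.95) or 2 (2.003) and without those 2 libraries (2.29), with ranges of 0.27 to 3.13 and 1.27 to 2.95. In percentage points, the difference in the Insr exon 2 share ran from -3.19 to 14.1 with 1 library left out, reversing without sham replicate 1 (-1.74) or 3 (-3.19) or TAC replicate 1 (-2.54), 3 (-2.54) or 4 (-2.99). That of Igf1r ran from -11.3 to 5.40, reversing without sham replicate 2 and without both shallow libraries (5.40 each). The ratio of the exon 2 circles ran from -1.56 to 0.53, reversing without sham replicate 4 (0.53). For these changes the cause was not tested. All other alternatives run for these results kept the direction and the side of the threshold. Within limma, scaling moved the median over all circles from 0.15 to 0.06 (TMM) and -0.09 (library total), and Insr exon 2 to 0.30 under the last. Over the fewer circles that edgeR tested the median was -0.02 with TMM and 0.23 with RLE.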
